A study of Mus musculus with 2 samples.

Results

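Cytosolic ribosomal proteins are the structural proteins of the ribosomes that translate nuclear messages, and this account describes the level of their messages in mouse embryonic stem cells with and without overexpression of lincU, a long noncoding RNA. Members were all genes whose symbol is Rpl or Rps followed by a digit, or is Rpsa, Rplp0, Rplp1 or Rplp2, measured on a probe set named to that gene alone. Genes on chromosome 14, S6 kinases, Rps19bp1 and pseudogenes were left out. The rule found 43 genes among the 10313 measured, with 18 of the small and 25 of the large subunit, on 70 probe sets. They lay on 15 chromosomes. Of 86 such genes off chromosome 14 in the RefSeq gene table, the others were not analysed here as members.

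Each group had 1 array, so no difference has a replicate check, no test was made, and every value describes these 2 arrays. The control array held RNA of line 46C, embryonic stem cells that carry a green fluorescent protein reporter at the Sox1 locus. The overexpression array held RNA of the same line with lincU overexpressed. Both cultures grew on feeder cells in 15% serum with LIF at 1000 U/ml, and feeders were taken away before lysis. The labels give neither the promoter that drives lincU nor whether the cells were a clone or a pool, and the control is described only as such. Of 8 embryonic stem cell markers 7 were measured and all 7 had bright signal, at log2 signals of 11.51 to 14.85 in control and 12.15 to 14.83 in overexpressing cells. Of 12 fibroblast markers 10 were measured and 8 were bright, none at 0, with a log2 of their summed signal of 12.67 for control and 12.80 for overexpressing cells, and their part in the results was not tested. In bulk RNA, fewer cells of a type and less RNA per cell cannot be told apart.

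A ribosome holds about the same number of copies of each of its proteins, and cells keep their synthesis in step. In mammals this is done largely at translation, through a tract of pyrimidines at the very start of these messages that lets mTOR signalling switch the whole set on or off together. Ribosomal protein messages are among the most abundant in embryonic stem cells. Excess ribosomal proteins are degraded, and some, such as Rpl11, bind the p53 regulator MDM2 when ribosome assembly is disturbed.

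The ribosomal protein messages hardly differed between the arrays, most of them by about the same small amount. The median log2 difference of the 43 members, overexpression minus control, was 0.093, with an SD over genes of 0.18. Of the members, 42 were bright, which means at or above the array's median on the array of higher signal. Only Rps25 was at least 1.5-fold apart, that is 1 of 42 bright members, where 11.3% of all 5609 bright genes were that far apart in either direction and 4.65% were that much higher. As deposited, no member was 2-fold apart, against 2.83% of all bright genes. The spread of a difference narrows as signal grows, so genes of like signal are the yardstick. Of 1156 other genes off chromosome 14 with a mean log2 signal between 11.62 and 14.91, which spans the 10th to the 90th percentile of the members, 1.73% were at least 1.5-fold apart, and their SD was 0.22. Of the 1156, 4 were at least 2-fold lower and none as much higher, so having no member 2-fold apart does not set the members apart. Most of these 1156 genes were dimmer than most members. At a mean log2 signal of 14 or more stood 32 of the 43 members, but at most 78 of the 1156. In the window from the 25th to the 75th percentile of the members, 120 other genes had an SD of 0.10.

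**Figure D1:**
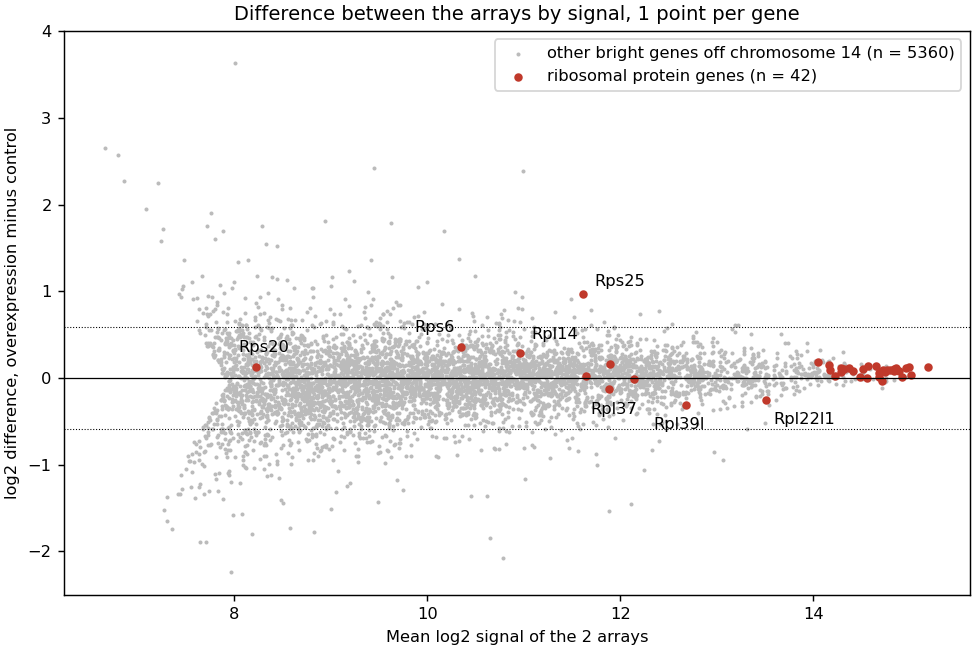
The log2 difference between the arrays (vertical axis) against the mean log2 signal (horizontal axis), 1 point per bright gene, with 42 ribosomal protein genes in red, 5360 other genes off chromosome 14 in grey and dotted lines at 1.5-fold. Most red points form a tight band just above 0 at the bright end, with Rps25 alone past 1.5-fold.

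The band is tightest among the brightest members. At a mean log2 signal of 14 or more stood 32 members and 78 other genes off chromosome 14. The members made up 22 of the 41 genes at 14.5 or more on any chromosome. The SD of the log2 difference over these 32 members was 0.049, against 0.088 over the 78 others. The members were the brighter of these 2 sets. At 14.5 or more the SD was 0.048 over 22 members and 0.071 over 17 others. From 14 to 14.5 it was 0.053 over 10 members and 0.091 over 61 others. The middle of the members' distribution ran from 0.067 to 0.11, and that of the others from 0.0080 to 0.12, both as quartiles. The largest difference among these members was 1.14-fold and among the others 1.25-fold, and 28 of 32 members against 60 of 78 others lay within 1.1-fold. The gap between genes was thus about as small as the gap between probe sets of a single gene: over the 9 members with several probe sets at 14 or more, the pooled SD between probe sets of a gene was 0.052, and over 13 other such genes it was 0.056.

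**Figure D2:**
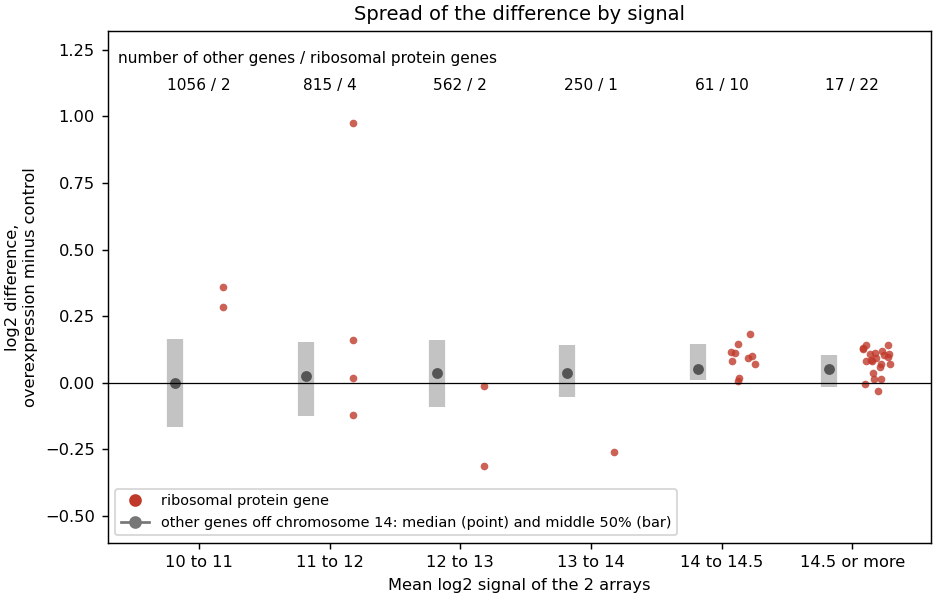
The log2 difference between the arrays by class of mean log2 signal, with each ribosomal protein gene as a red point and the median and middle 50% of the other genes off chromosome 14 as a grey point and bar. The 32 members at 14 or more cluster around 0.094, while the 9 members between 10 and 14 are scattered from -0.31 to 0.97.

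Spread fell with signal in the other genes too, from an SD of 0.31 over 1056 genes of log2 signal 10 to 11 to 0.071 over 17 genes at 14.5 or more. The highest values of the whole table, 15.13 in control and 15.26 in overexpressing cells, belonged to Rps29. Whether signals this high compress differences between the arrays was not tested. Among the 9 members of log2 signal 10 to 14 the SD was 0.39, against 0.27 over 2683 other genes in that range, and the 10 members under 14 other than Rps25 had an SD of 0.22. The narrow spread was thus a feature of the 32 members at 14 or more, and the 10 bright members under 14 had an SD of 0.37.

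The small upward shift of the set depended on how the arrays are scaled. As deposited, 36 of 43 members were higher in overexpressing cells, where 50.2% of all bright genes and 61.9% of other genes of like signal were higher. Of the 32 brightest members 30 were higher, where 76.9% of other genes of that signal were. With arrays centred on their medians 39 of 43 members were higher, with quantile normalization 23, and with the trend on signal subtracted 26. The set's median was 0.15, 0.017 and 0.013 under these settings. Of the 32 brightest members 17 were higher with quantile normalization and 19 with the trend removed. At log2 signals of 14 or more, the members' median was 0.094 against 0.051 for other genes as deposited, 0.013 against -0.027 with quantiles and 0.012 against -0.022 with the trend removed, so it stood above theirs in each. Their SD there was 0.049 as deposited and 0.050 under both of these. Centring takes 1 constant from each array and so cannot change an SD or the gap between the medians.

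Most messages of the small subunit lay close together. Rpsa, also known as the laminin receptor, stood at 14.75 on the control array and 14.83 on the other, a difference of 0.087. Rps3, which lies at the entry of the message channel, went from 14.27 to 14.36, a difference of 0.099. The X-linked Rps4x went from 14.78 to 14.89, a difference of 0.11. Rps29 went from 15.13 to 15.26, a difference of 0.13. As deposited, all 4 were slightly higher in overexpressing cells, each by under 1.1-fold. Rps2, Rps3a1, Rps7, Rps9, Rps10, Rps15, Rps18, Rps26 and Rps28 lay between 0.070 and 0.13. Rps20, a protein of the small subunit's head, differed by 0.13 on a much dimmer probe set, from 8.16 to 8.29. As deposited, Rps14 was the only small subunit gene with a lower value, at -0.032 on the probe set used and 0.079 on another. Over all 18 small subunit genes the median difference was 0.10 and over the 25 large subunit genes 0.058. At log2 signals of 14 or more the medians were 0.096 over 15 small subunit genes and 0.082 over 17 large subunit genes, with SDs of 0.041 and 0.056. Whether the subunits differ was not tested.

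In the large subunit, the stalk that recruits elongation factors was represented by 3 genes. Rplp0, its base, went from 14.49 to 14.64, a difference of 0.14. Rplp2 differed by 0.037 and Rpl12, which binds beside the stalk, by 0.020. Rpl11, which joins a small ribosomal RNA to the large subunit, was at 14.56 and 14.55, a difference of -0.0025. Rpl38, known for its part in translating Hox messages, differed by 0.12 and Rpl10a by 0.11. Rpl4, Rpl6, Rpl7, Rpl7a, Rpl8, Rpl13a, Rpl19, Rpl27, Rpl35 and Rpl37a lay between 0.0064 and 0.14. Rpl27a stood at -0.013, and a bright probe set that lists it with other genes at 0.052. Rpl37, which has a zinc-binding fold, was the lowest of the standard bright members, going from 11.94 to 11.82, a difference of -0.12. That was a common value for its signal: 23.1% of 736 like genes were at least as far down. The 1 bright probe set that lists Rpl37 with other genes had the opposite sign, at 0.15.

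Of the genes whose mutation causes Diamond-Blackfan anaemia, a failure of red cell formation, 8 of 17 listed were measured. Their differences ran from -0.0025 for Rpl11 to 0.14 for Rpl27, with a median of 0.088. None was 1.5-fold apart, where 1.73% of other genes of like signal to the members were. With 8 genes and so small a share, this count does not set them apart. Rps19, the gene most often mutated in that disease, was not analysed here.

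**Figure D3:**
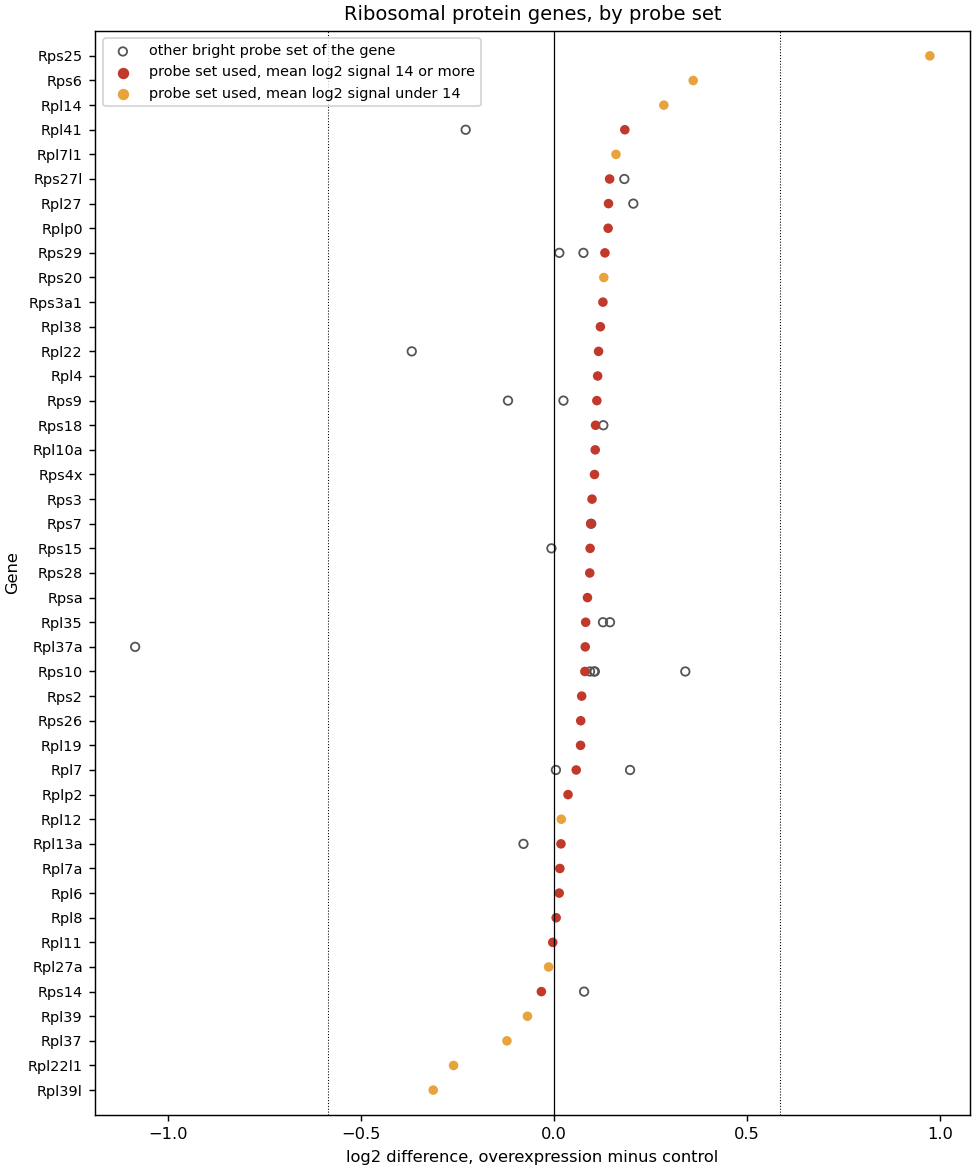
The log2 difference between the arrays for all 43 members in order of size, with the probe set used for each gene filled (red at a mean log2 signal of 14 or more, orange under it), other bright probe sets of the gene as open circles and dotted lines at 1.5-fold. Members at both ends of the order are orange, and Rpl37a has an open circle at -1.08, far from its filled point.

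Rps25 stood apart from all other members. It encodes a small subunit protein that several viral messages need for entry of the ribosome at an internal site. Its only probe set read 11.13 for control and 12.11 for overexpressing cells, a difference of 0.97 or 1.96-fold. None of 791 other genes off chromosome 14 within 0.5 of its mean signal was as high, and the highest of them stood at 0.92. The difference was between 0.95 and 1.03 under the 3 other scalings, and so past 2-fold with the arrays centred on their medians. With no further probe set of Rps25 and no further array, this value has no repeat measurement.

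Rps6 and Rpl14 followed at a distance. Rps6, the small subunit protein phosphorylated by S6 kinase, went from 10.17 to 10.53, a difference of 0.36. Of 1102 other genes of its signal 8.35% were at least as far up. Rpl14 went from 10.82 to 11.11, a difference of 0.29, and 12.9% of 963 like genes were at least as far up. Both values rest on 1 probe set. The annotation also lists each gene together with pseudogenes on 5 further bright probe sets. Those that list Rps6 ran from -0.62 to 0.0079, and those that list Rpl14 from 0.0043 to 0.11. The higher value of Rps6 was therefore not shared by any of the probe sets that also list it.

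The paralogues of standard ribosomal proteins went different ways. Rpl39l, a copy of Rpl39 at the exit of the peptide tunnel, had the lowest value of all members, reading 12.84 in the control culture and 12.52 in the other, a difference of -0.31. Rpl22l1, a copy of Rpl22, went from 13.64 to 13.38, a difference of -0.26. Of other genes of like signal, 5.81% of 482 were at least as far down as Rpl39l and 4.86% of 247 as far down as Rpl22l1. Under the 3 other scalings Rpl39l ran from -0.36 to -0.26 and Rpl22l1 from -0.33 to -0.20, so both stayed lower. Rps27l, a copy of Rps27 that p53 induces, was higher on both of its probe sets, at 0.14 and 0.18. Rpl7l1, a relative of Rpl7, differed by 0.16, from 11.81 to 11.97. Of other genes of like signal, 24.8% of 129 were at least as far up as Rps27l and 25.3% of 732 as Rpl7l1. Both were thus common values for their signal. Under the 3 other scalings Rps27l ran from 0.049 to 0.20 and Rpl7l1 from 0.11 to 0.22.

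Of the parents of these paralogues, Rps27 was not analysed here as a member, and the others gave small or mixed differences. Rpl39 was the only dim member, at 7.51 in control and 7.44 in overexpressing cells. Rpl22 differed by 0.12 on a probe set of log2 signal 14.23 to 14.34 and by -0.37 on another, of 10.09 to 9.72. The 3 probe sets of Rpl7 lay between 0.0057 and 0.20. Rpl22 and its copy thus had values of opposite sign on their brighter probe sets but of the same sign on the dimmer one of Rpl22.

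Probe sets of a member read alike at high signal and less so below it. Of 15 members with several bright probe sets, 8 had the same sign on all of them and 10 had all of them within 0.2 of each other. The 5 probe sets of Rps10 illustrate this, with 4 of log2 signal above 14 between 0.081 and 0.11 and 1 of signal near 8 at 0.34. Rpl37a had the widest gap. Its brighter probe set went from 14.37 to 14.45, a difference of 0.082, and the other went from 10.90 to 9.82, a difference of -1.08. Rpl41, the shortest ribosomal protein, read 0.18 and -0.23. Of the 70 member probe sets 48 were of a type that can bind several transcripts, either of the same gene or of related ones. Ribosomal protein genes have many processed pseudogenes. What share of these signals comes from copies was not tested.

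Dim probe sets gave the widest differences of all. A second probe set of Rpl27a went from 3.55 to 6.20, below the floor of 5.73 in control and 0.47 apart once set to it, while the one used went from 12.15 to 12.14. The dim probe sets of Rps18 went from 6.66 to 6.14 and from 6.10 to 7.21, against differences of 0.11 and 0.13 on its bright ones. With the raw signals of a gene's probe sets averaged, Rpl27a and Rpsa joined Rps25 past 1.5-fold, at 2.50-fold and 1.54-fold, each through 1 probe set below the floor on at least 1 array. With each probe set first set to the floor, a step added after the data were seen, Rps25 was again the only member that far apart.

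Just outside the rule, Rps24 on chromosome 14 was higher than the members of like signal, at 0.27 and 0.37 on its bright probe sets. The highest member at a log2 signal of 14 or more, Rpl41, stood at 0.18. Chromosome 14 held other genes far apart between the arrays. Without it, 9 of the 1156 genes of like signal to the members were at least 1.5-fold higher and 11 as much lower. With it included, 27 of 1203 were higher and 24 lower. Whether the value of Rps24 goes with its chromosome was not tested.

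Some promoter features that the rule did not use were commoner in the members than in other genes, in counts that were not tested. RefSeq sequences of assembly GRCm38.p6, from 250 bases before to 50 after each annotated start, were matched by symbol for 38 of 43 members. The longest unbroken run of C or T on the sense strand within 30 bases of the start on either side was 8 or longer in 22 of the 38 members or 57.9%, in 25.8% of 27025 genes of the table and in 25.1% of 4598 other bright genes. The motif CCGGAAG, the core bound by ETS factors, was found on either strand of the 300 bases in 21 members or 55.3%, in 9.93% of all genes and in 23.6% of other bright genes. AAGATGG, which resembles a YY1 site, was found on either strand in 6 members or 15.8%, 7.28% of all genes and 9.72% of other bright genes. TATAAA, the TATA box, was found on the sense strand in 5 members or 13.2%, 9.77% of all genes and 5.44% of other bright genes. Runs of C or T can overlap CTTCCGG, the other strand of the ETS core.

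The 60 bases around the start are shown for members of the even majority, for the members that stood apart and for the paralogue pairs, 30 on each side, with the longest run of C or T in capitals. Rpl35, Rps10, Rplp2 and Rps18, shown for the even majority, all have a run of 8 or longer. Only 57.9% of the matched members do, so these windows are not typical of the set. Annotated starts may not be the main start of transcription. The windows lie at chr2:39005102-39005161 on the minus strand for Rpl35, chr17:27635215-27635274 minus for Rps10, chr7:141447621-141447680 plus for Rplp2, chr17:33955636-33955695 minus for Rps18, chr9:44407684-44407743 plus for Rps25, chr4:86857338-86857397 minus for Rps6, chr4:152324406-152324465 plus for Rpl22, chr3:28805478-28805537 plus for Rpl22l1, chrX:37085193-37085252 minus for Rpl39 and chr16:10170198-10170257 plus for Rpl39l.
Rpl35: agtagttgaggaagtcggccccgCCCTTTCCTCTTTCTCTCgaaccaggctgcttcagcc
Rps10: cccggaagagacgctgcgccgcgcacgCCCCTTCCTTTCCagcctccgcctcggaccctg
Rplp2: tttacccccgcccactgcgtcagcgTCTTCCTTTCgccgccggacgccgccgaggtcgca
Rps18: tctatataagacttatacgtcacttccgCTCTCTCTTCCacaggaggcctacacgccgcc
Rps25: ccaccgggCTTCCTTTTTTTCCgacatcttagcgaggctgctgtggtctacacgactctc
Rps6: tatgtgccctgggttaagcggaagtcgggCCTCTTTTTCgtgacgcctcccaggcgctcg
Rpl22: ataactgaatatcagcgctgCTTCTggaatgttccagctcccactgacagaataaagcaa
Rpl22l1: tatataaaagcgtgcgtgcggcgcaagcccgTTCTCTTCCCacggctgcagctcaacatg
Rpl39: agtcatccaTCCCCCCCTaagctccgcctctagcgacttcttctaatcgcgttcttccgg
Rpl39l: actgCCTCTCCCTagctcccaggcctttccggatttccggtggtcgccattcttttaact

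In Rpl35, Rps10, Rplp2, Rps18 and Rps6 the run spans the annotated start, and in Rpl22l1 it begins 2 bases into the message. In Rps25 a run of 14 begins 22 bases before the start, while Rpl22 had no run longer than 5 in either of its annotated windows. Rpl39 and Rpl39l both hold a run of 9, placed before the start. The 21 bright members off chromosome 14 with a run of 8 or more had a median difference of 0.083, and the 16 without one 0.097. Other bright genes had medians of -0.0049 with and 0.0067 without such a run. A match describes these letters only and shows no binding.

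Most other genes of translation also differed little between the arrays. Fau, whose product is a fusion of a ubiquitin-like protein with a small subunit protein, differed by 0.089. The 5 elongation factor genes had a median of 0.0098, from -0.092 for Eef1d to 0.045 for Eef2. None was 1.5-fold apart, where 1.73% of other genes of like signal to the members were. Eef1a1, the factor that brings transfer RNA to the ribosome, stood at 14.95 and 14.96. Of 20 bright initiation factor genes 13 were higher, or 65%, near the 61.9% of other genes of like signal to the members. None was 1.5-fold apart, where 1.73% of those genes were, and the median was 0.046. Eif3i had the highest value at 0.29 and Eif4b, an RNA helicase cofactor, the lowest at -0.19.

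Genes for building the ribosome had a median of 0.10 over 25 bright genes. Of these 18 or 72% were higher, where 50.2% of all bright genes and 61.9% of genes of like signal to the members were. Nop2, a methyltransferase of large subunit RNA, stood at 0.42 and Rrp1 at -0.27. Gnl3 at 0.76 was the only one past 1.5-fold, and it lies on chromosome 14. That far apart were 11.3% of all bright genes and 1.73% of genes of like signal to the members. With 25 genes and so small a share, this count does not set the list apart. The 9 genes of RNA polymerase I and its factors, which transcribe ribosomal RNA, had a median of 0.027, from -0.061 for Taf1d to 0.27 for Taf1b. Proteins of the mitochondrial ribosome, a separate machine of bacterial origin, had a median of 0.098 over 58 genes, close to the 0.094 of bright cytosolic members. Off chromosome 14 their SD was 0.23. Only 1 gene, Mrpl33, was at least 1.5-fold apart, where 11.3% of all bright genes were. Most genes of this list lay at log2 signals of 10 to 14. Of 2683 other genes off chromosome 14 there, 42 were that much higher and 50 that much lower. With so small a share, the count of 1 does not set the list apart. Mrpl33 was 2.58-fold higher in overexpressing cells, going from 9.65 to 11.02. Their difference in spread from the cytosolic set was not tested.

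**Figure D4:**
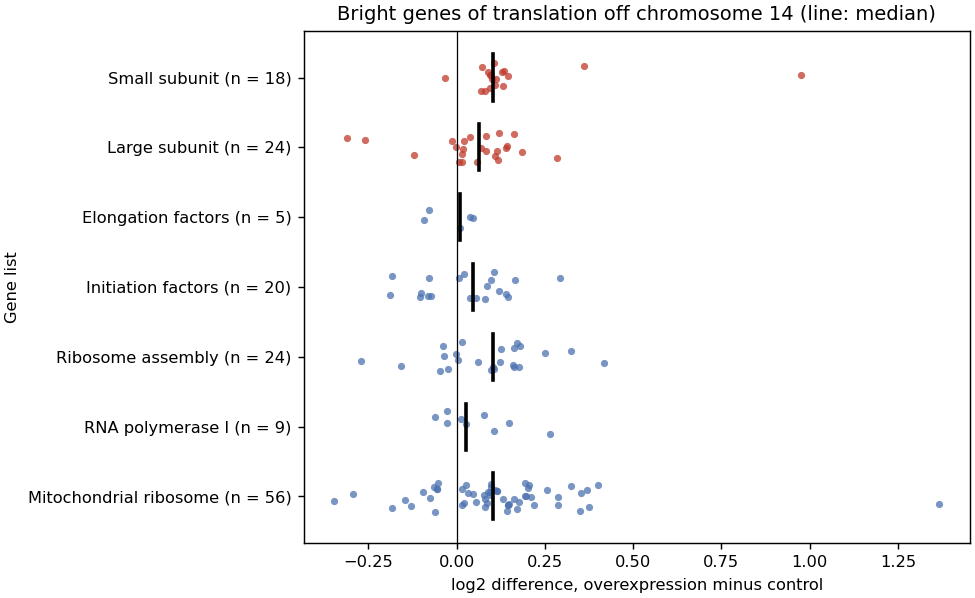
The log2 difference between the arrays (horizontal axis) for bright genes of translation off chromosome 14, 1 point per gene, with the median of each list as a black line. The medians lie between 0.0098 and 0.10, and Rps25 and Mrpl33 are the points farthest to the right.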

How the data were processed

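Gene expression was measured on 2 Affymetrix arrays, 1 for each group. The deposited values are log2 signals of probe sets; the log2 scale was read from their range. MAS5 and affy are named, without order, role or version, in the submitters' processing notes, with no scaling target. Of 16994 probe sets, 64 were controls, 15273 had a single gene name, 501 several and 1156 none in the platform annotation. By gene ID, 15252 of the single names matched the RefSeq table of GRCm38.p6.

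Values were compared as deposited, with Python 3.11.15, pandas 2.3.3, numpy 2.4.6 and statsmodels 0.14.6. Signals below an array's 25th percentile, 5.73 in control and 5.65 in overexpressing cells, were set to it, and genes below it on both arrays were given a difference of 0. Each gene took its brightest probe set, by mean signal. A gene was bright at or above the median of the array of higher signal, 7.96 or 7.90. The fold threshold was 1.5. With 1 array per group no test was made, and precision is limited by this number. The calculations were tested on simulated data.

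Members, lists and rules were chosen with earlier results of these data known. Named were the 12 members of largest difference, paralogues with their parents, the highest and lowest gene of each list, genes with probe sets of opposite sign over 0.5 apart, the stalk, Rpl11, Fau, Rps6, Rps19, Rpl10a and Rpl38. Other examples were chosen after their values were seen.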

Additional observations from a re-analysis of the deposited data

How the results depend on the processing

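The count of 1 member at least 1.5-fold apart became 3 with the raw signals of a gene's probe sets averaged, 0 at a 2-fold threshold, and, under settings chosen after seeing the data, 0 without Rps25, 0 among members of log2 signal 14 or more and 1 with each probe set put at the floor before averaging. The set's median stayed between 0.013 and 0.15, and its SD was 0.12 without Rps25. It was 0.35 over the 19 members left when types that bind several transcripts, of the same or related genes, were dropped. The SD of other genes of like signal ranged from 0.10, in the window from the 25th to the 75th percentile of the members, to 0.32 over the whole range of bright members, and was 0.27 with chromosome 14 included. The member SD of 0.18 lies inside this range, so the comparison over all members depends on the window. It depends on the probe sets too. Members against like genes had SDs of 0.29 against 0.26 with raw signals averaged and 0.21 against 0.26 with the floor set first. Without types that bind several transcripts the SDs were 0.35 against 0.34. No member lay in the stretch of chromosome 6 from Rad18 to Resf1. Of 117 alternative values for the 12 members of largest difference, 116 moved by less than 0.21, the SD between bright probe sets of a member. The 1 that moved further was Rpl41, to -0.23 without types that bind several transcripts. This yardstick is wide. It was 0.12 without Rpl37a, and the fall of Rps29 from 0.13 to 0 under quantile normalization stayed within it. Some settings, such as no floor, left the values of these members unchanged, so the count is no measure of their stability. No paired analysis was possible because each group has 1 array. Depth does not apply to arrays, and dim probe sets near the floor limit what can be read.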

Other observations

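Probe sets that the annotation gives to several genes were left out above. Among them, 69 bright ones list a ribosomal protein gene off chromosome 14, most with pseudogenes, and 27 such genes are listed on these alone. At a log2 signal of 14 or more, 48 of 50 were higher in overexpressing cells, where 76.9% of 78 other genes of that signal were, with a median difference of 0.072 and an SD of 0.056. These are values as deposited: of the 32 members of that signal 30 were higher as deposited and 17 with quantile normalization, which was not applied to these probe sets. The 19 bright ones under 14 had a median of 0.047 and an SD of 0.35. Which of the listed genes gives the signal is not known. They come from the same 2 arrays as the members and are no further replicate.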
